A study of Ginkgo biloba with 15 samples.

Results

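A set of 243 genes of Ginkgo biloba, a gymnosperm tree, fell in the embryo at both steps of a seasonal series, from September to November and again from November to February. They were picked from the 41840 annotated genes (0.581%), out of 43690 gene models in all. Levels are in FPKM, fragment counts divided by gene length and by the size of the library. A member had a mean of 5 FPKM or more in September and a fall of at least 1.5 on the log2(FPKM + 1) scale at each step. Both libraries of the later month also had to lie below both of the earlier month. The size of the falls, the order of the months and the September level therefore chose the members, and their values in these months are a description. Model calls on the same contrasts, given once below, lend no support to the choice.

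Embryos came from healthy trees growing outdoors on a university campus, and the months compared were September 2015, November 2015 and February 2016. Each month had 2 mRNA libraries, called by month and number here, and the labels distinguish the groups only by month and year of collection. No label says whether libraries of a month came from separate trees, how many embryos were pooled, or what the embryo looked like. Any p-value thus reflects only how far these libraries of 1 month lie apart, and that spread may be technical. The deposited table gives identifiers and positions and does not pair them with gene names, so the label of embryo could not be checked against marker genes. For the same reason 2 members are given by identifier and the others by scaffold and position, and no function is given to any member. No gene sequence was used here.

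As background, the Ginkgo seed is shed with an embryo that is still small and immature, and the embryo goes on growing inside the seed, surrounded by the nutritive female gametophyte, through autumn and winter. In maturing plant seeds in general, transcripts of storage and desiccation-protection proteins accumulate, and transcripts of early growth decline as the seed becomes dormant. Each value below is an average over all cells of the sampled tissue. In such bulk samples, fewer cells of a type and less RNA per cell cannot be told apart.

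The libraries held 14580168 to 19737638 recovered reads, and November 2 was the deepest. A single read on a gene of 1000 bases was worth 0.0509 to 0.0689 FPKM. At the median listed length of the members, 3 reads, the amount that a count of 0 allows, came to 0.143 to 0.194 FPKM, for counting error only. Of 14294 annotated genes with 5 FPKM or more in September, 642 fell by at least 3 in total between September and February. The 243 members made up 37.9% of those. A further 25 genes passed both falls but had libraries of neighbouring months that overlapped. Among the members the 2 November libraries stood apart from each other, as described below. The same rule gave 165 genes without November 1, of which 119 were among the 243, and 132 without November 2, of which 103 were.

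Together the members held a measurable part of the September transcriptome and almost none of it in February. They took 5.07% and 4.82% of the summed FPKM in September 1 and September 2. In November they took 0.782% and 0.535%, and in February 0.0813% and 0.0854%. Counted as reads, the shares were 3.98% and 3.87%, then 0.86% and 0.462%, then 0.064% and 0.0693%. The months did not overlap on either scale, and the rule already required this of the FPKM of each member. The single most abundant member carried much of the September share, which was 3.01% and 3.25% without it. The 10 most abundant members held 66.1% and 61.8% of the members' summed FPKM in September and 25.6% and 53.5% in November.

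The typical member was moderately expressed in September and close to the detection limit by February. The median over members was 49.2 FPKM in September 1 and 50.8 in September 2. It was 16.8 in November 1 and 4.21 in November 2, and 0.513 and 0.519 in the February libraries. September and February were thus each alike between their libraries, while the November medians were far apart. Mean levels in September ran from 9.08 to 19033 FPKM, and 66 members were at 100 FPKM or more. In February 155 of the 243 averaged below 1 FPKM and 209 below 5 FPKM.

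**Figure D1:**
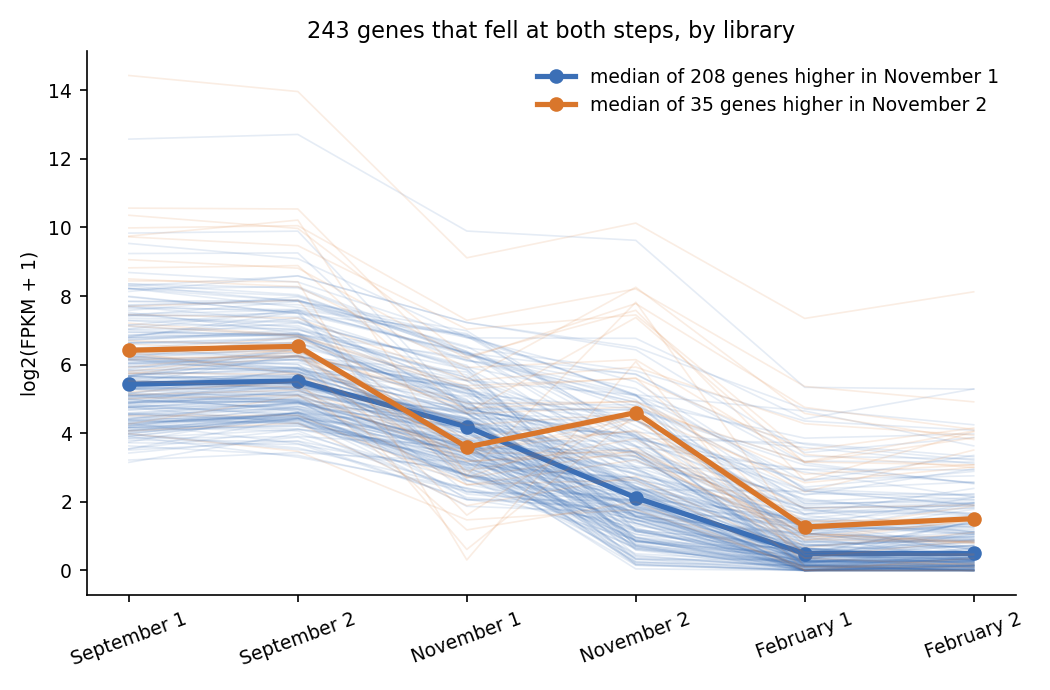
Level of each of the 243 genes, log2(FPKM + 1), in the 6 mRNA libraries. Thin lines join the values of a gene and have no meaning between libraries of a month, and thick lines are medians of the 208 genes higher in November 1 (blue) and the 35 higher in November 2 (orange). Both September libraries lie above both November libraries and both February libraries lie lowest, and the blue median drops from November 1 to November 2 while the orange one rises.

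Measured from the mean of the November libraries, the first fall had a median of 2.25 (lowest 1.5, highest 5.7) and the second a median of 2.17 (lowest 1.5, highest 5.61), both as log2(FPKM + 1). With either November library alone the falls of the same 243 genes were unlike, with medians of 1.41 and 2.92 without November 2 and of 2.92 and 1.56 without November 1. With the mean, the first fall was the larger in 122 members and the second in 121. In 121 members the falls were within 0.5 of each other, and in 55 they differed by more than 1, with the first larger in 25 and the second in 30. A total of 105 members fell by 2 or more at both steps and 12 by 3 or more at both. As plain FPKM, a median of 24.5% of the September level was left in November and 1.21% in February. The most that any member kept was 44.5% in November and 10.4% in February. The second fall is bounded by the pseudocount for genes near 0, since its median was 3.42 when 0.1 was added in place of 1.

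**Figure D2:**
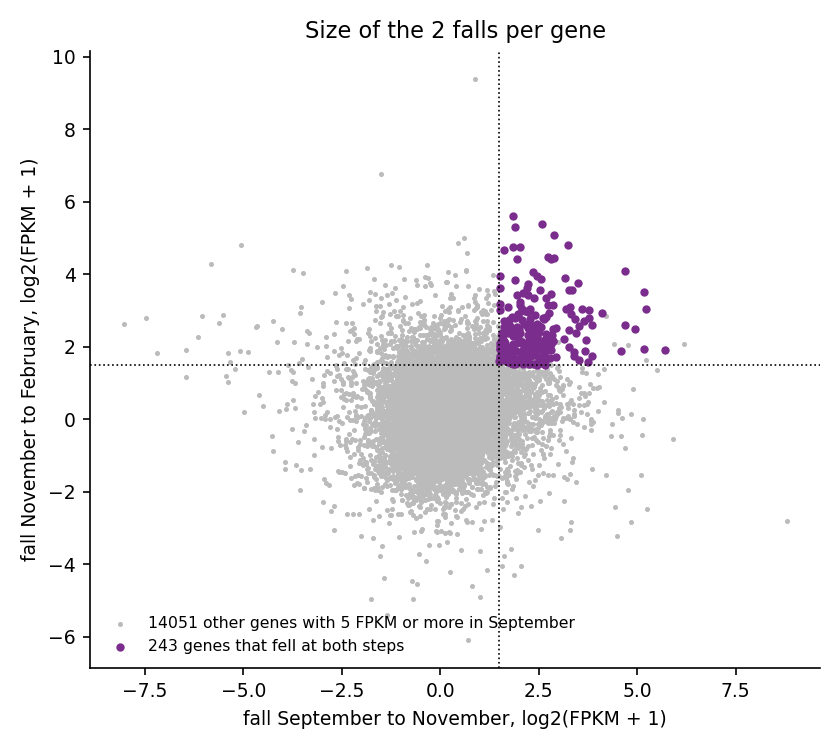
Fall from September to November (x axis) against fall from November to February (y axis), both as log2(FPKM + 1), for genes with 5 FPKM or more in September. The 243 members (purple) fill the corner past the dotted limits of 1.5, and the few grey points in that corner belong to the 25 genes whose libraries overlapped between months.

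By limma, a linear model fitted to all genes, 173 of the 243 members were called lower in November than in September at an adjusted p threshold of 0.05. The share of all 22947 tested genes called lower there was 15.9%. Between November and February 176 members were called lower, against 22.6% of tested genes, and between September and February 243, against 33.9%. Both successive calls held for 159 members, 14 had the first only, 17 the second only and 53 neither. All 243 passed the filter on low values through their September libraries, and the rule used these same contrasts, so the counts add nothing to the choice of the members. The median difference over all tested genes was −0.06 at the first step and −0.10 at the second, against −2.25 and −2.17 over the members. The first count was 82 without September 1 and 74 without September 2, and the second was 99 without February 1. With edgeR on recovered reads the second count was 231 and with DESeq2 241.

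The most abundant member was Gb_11712, on scaffold 1909 (631381 to 632201, minus strand). Its libraries held 22093 and 15974 FPKM in September, 554 and 1118 in November, and 162 and 278 in February. It fell by 4.58 and then by 1.89 on the log2(FPKM + 1) scale, so that 4.39% of its September level was left in November and 1.15% in February. It was still the highest of the members in February.

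Next came Gb_21101, on scaffold 338 (1421768 to 1422241, plus strand), at 6107 and 6713 FPKM in September. November brought it to 952 and 789 FPKM and February to 39.5 and 38 FPKM. Its second fall (4.45) was larger than its first (2.88), and its libraries were close to each other in every month. Another member on the minus strand of the same scaffold (3947144 to 3947617) has the same listed length of 474 bases, equal to its span. That gene stood at 1014 and 1061 FPKM in September, 156 and 295 in November and 40.2 and 29.2 in February. Whether the 2 models are copies that share reads was not tested.

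The third in abundance lay on scaffold 3536 (1113104 to 1113761, plus strand). It held 1514 and 1487 FPKM in September, 46.6 and 305 in November, and 22.9 and 13.1 in February. The November libraries differed by 2.68 on the log2(FPKM + 1) scale with November 2 the higher, although the September libraries were nearly equal. The gene ranked 4, on scaffold 4917 (1725687 to 1726105, plus strand), went from 1310 and 1004 FPKM to 74.2 and 191, and then to 5.18 and 15.5. Ranked 6, a gene on scaffold 23275 (164489 to 165740, minus strand) had the largest total fall of the set, 8.77. Its September values of 859 and 1188 FPKM were followed by 5.82 and 225 in November and by 0.952 and 1.74 in February. November 1 was thus closer to February and November 2 closer to September.

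A gene on scaffold 1719 (105344 to 108045, minus strand) showed the opposite, a November level that the libraries shared. It held 913 and 950 FPKM in September, 24.9 and 24.6 in November, and 1.11 and 1.47 in February. Its falls were 5.18 and 3.5. The gene on scaffold 20884 (89399 to 89734, minus strand) held 846 and 708 FPKM, then 130 and 174, then 9.43 and 7.01. That on scaffold 3971 (1474044 to 1474610, minus strand) held 741 and 544 FPKM, then 111 and 44.3, then 4.16 and 3.52. Last of the first 10, a gene on scaffold 2998 (1608130 to 1608540, minus strand) held 604 and 611 FPKM, then 24.8 and 14.2, then 2.12 and 2.94. Months did not overlap in any of the 10, as the rule requires. Of these 10 genes 8 had a listed length under 600 bases, against 57 of the 243 members (23.5%) and 22.4% of all genes with 5 FPKM or more in September.

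**Figure D3:**
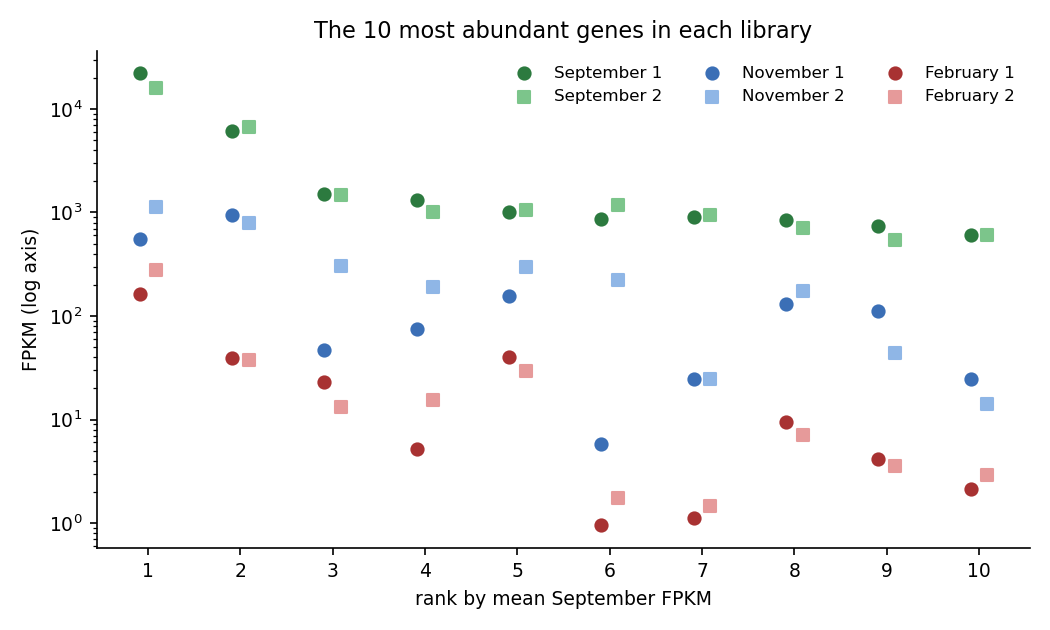
FPKM on a log axis of the 10 most abundant members, ranked by mean September FPKM, with a point for each library. September (green) lies highest and February (red) lowest for every gene, and the November libraries (blue) are widest apart for the gene of rank 6, at 5.82 and 225 FPKM.

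Among the largest first falls, that of a gene on scaffold 217 (249938 to 250660, plus strand) was 5.7, from 251 and 180 FPKM to 4.71 and 1.97. In February it was listed at 0 and 0.212 FPKM, the latter a single read. Next was a first fall of 5.23, in a gene on scaffold 341 (3328100 to 3329736, plus strand), from 347 and 341 FPKM to 0.237 and 67.2. In February it was at 0.0805 and 0.156 FPKM, and its November libraries were the most unlike of all members, by 5.79. On scaffold 6870 (1115229 to 1116093, plus strand), a first fall of 5.17 led from 110 and 186 FPKM to 5.19 and 1.59. The genes of scaffolds 1719 and 2998 described above, at 5.18 and 4.94, complete the first 5.

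In each of the genes with the largest second falls November 1 was above November 2. A gene on scaffold 1834 (550459 to 554007, plus strand) stood at 230 and 214 FPKM, then at 110 and 33.9, and then at 0.395 and 0.154, a second fall of 5.61. On scaffold 709 (1319751 to 1323506, minus strand) the values were 177 and 192 FPKM, then 76.8 and 30.6, then 0.378 and 0.138, with a second fall of 5.31. On scaffold 6926 (2163614 to 2165596, minus strand) they were 296 and 309 FPKM, then 82.5 and 11.4, then 0.12 and 0.174, a second fall of 4.81. The remaining pair of the first 5 lies side by side on scaffold 5172 and is described with the neighbours below. After the gene of scaffold 23275, the largest total falls were those of the genes of scaffolds 1719 (8.67), 341 (8.27) and 6926 (8.05) and of the second gene of the scaffold 5172 pair (7.97).

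Some members came down in nearly equal steps. On scaffold 5570 (1265625 to 1266620, plus strand) a gene went from 98.3 and 110 FPKM to 34.7 and 25.1, and then to 8.11 and 7.94, with falls of 1.78 and 1.76. On scaffold 76490 (81849 to 83212, minus strand) the falls were 1.67 and 1.7, and on scaffold 1739 (3452032 to 3457294, minus strand) they were 2.52 and 2.56. A gene on scaffold 2394 (913183 to 917037, plus strand) fell by 2.46 and 2.42, from 52.8 and 51.9 FPKM to 8.14 and 9.24 and then to 0.884 and 0.737. Its libraries agreed closely in every month. On scaffold 1391 (1698948 to 1700689, minus strand) the falls were 1.67 and 1.62, and 9.73% of the September level was left in February.

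Near the limits of the rule, the smallest falls inside it were 1.5 at rounding. They were the second fall of a gene on scaffold 3363 (239525 to 240973, plus strand), the first fall of a gene on scaffold 5590 (887573 to 967742, plus strand) and the second fall of a gene on scaffold 6328 (165438 to 168882, minus strand). Outside by less than the rounding were the first fall of a gene on scaffold 539 (1424368 to 1424928, minus strand) and the second falls of genes on scaffold 1990 (70894 to 75366, plus strand) and the minus strand of scaffold 4087 (1629111 to 1629581). The genes on either side of the limit were thus alike in size of fall.

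The November libraries differed among the members far more than those of the other months. The absolute difference between the 2 libraries had a median of 0.24 in September, 1.63 in November and 0.17 in February on the log2(FPKM + 1) scale. Over all 14294 genes with 5 FPKM or more in September the medians were 0.18, 0.28 and 0.23. The rule took the mean of the November libraries, so genes with these far apart could pass. Its part in the size of the November difference was not tested. The direction was shared as well. November 1 was the higher in 208 of the 243 members (85.6%), against 56.9% of all genes with that September level, and the median difference was 1.48. It was higher by more than 1 in 145 members (59.7%), against 4.81% of those genes. November 2 was higher by more than 1 in 11 members (4.53%), against 2.41% of those genes. With TMM factors November 1 was the higher in 200 members. In September library 1 was the higher in 96 of the 243 (39.5%), against 46.9% of all genes with that September level. In February library 1 was the higher in 113 (46.5%), against 50.6%. November 2 also had more reads than November 1, 19737638 against 16484720, and the part of depth in this difference was not tested.

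Genes that fell at only 1 of the steps showed a smaller difference. Early fallers were taken as the 318 genes with a first fall of 1.5 or more and a second change under 0.5. Late fallers were the 347 genes with the reverse, both sets with the same September level. At the step of the fall, both libraries of the later month also had to lie below both of the earlier month. November 1 was the higher in 174 early fallers (54.7%) and 246 late fallers (70.9%). The November libraries were more than 1 apart in 28% of early fallers and 7.78% of late fallers, against 64.2% of the members. Nearer to the members were the 399 other genes with a total fall of 3 or more, of which 42.1% had November libraries more than 1 apart. In that group November 1 was the higher in 66.7%, and by more than 1 in 31.1%. The rule of each set uses the mean of the November libraries, and its part in these shares was not tested. No test of the differences between sets was made, since genes are not replicates.

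How far each member had come down in each November library was expressed as a percentage of its fall from September to February on the log2(FPKM + 1) scale. In November 1 the median was 31.9% (quartiles 21.1% and 45.4%) and in November 2 it was 65.2% (quartiles 51.3% and 80.4%). A total of 199 members were less than 50% of the way down in November 1 and 56 in November 2. Among the 399 other genes with a total fall of 3 or more the medians were 44.8% and 67.9%.

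With each November library taken alone, 66 members met both falls of 1.5 with either library. Another 37 met them with November 1 only and 53 with November 2 only. The remaining 87 (35.8%) met them with neither, and only the mean of the libraries reached 1.5 at both steps. Each November library of these genes still lay between the other months, as the rule requires. In 85 of these 87 November 1 was within 1.5 of September and November 2 within 1.5 of February, and in 2 the order was reversed. The 87 genes tended to be less abundant, with a median September level of 26.8 FPKM, against 90.3 FPKM for the 66 that met both falls with either library. Even so, 9 of the 87 were at 100 FPKM or more in September. A gene with few FPKM has little room for 2 falls of 1.5 in log2(FPKM + 1), and the part of this was not tested. The November medians of the 87 were 16 FPKM in November 1 and 1.47 FPKM in November 2, and those of the 66 were 17.5 and 11.3 FPKM.

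Of the genes described above, Gb_21101 met both falls with either library and Gb_11712 with November 2 only. The 3 genes of the 87 with the highest September level, and another with the widest gap, were chosen after their values were seen. On scaffold 3354 (2093933 to 2094382, minus strand) a gene stood at 210 and 232 FPKM in September, 113 and 15.4 in November, and 11 and 7.65 in February. On scaffold 4521 (1561755 to 1562535, plus strand) the values were 199 and 194 FPKM, then 119 and 13.4, then 12.1 and 8.98. In both, the fall from September to November 1 and the fall from November 2 to February each stayed under 1.5. A gene on scaffold 3212 (42074 to 44737, plus strand) had the reverse order, at 452 and 473 FPKM, then 23.1 and 165, then 7.84 and 13.6. The widest gap with November 1 the higher was on scaffold 1903 (1154743 to 1164086, plus strand), with 62.2 and 0.807 FPKM in November after 114 and 148 in September and before 0.359 and 0.246 in February.

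**Figure D4:**
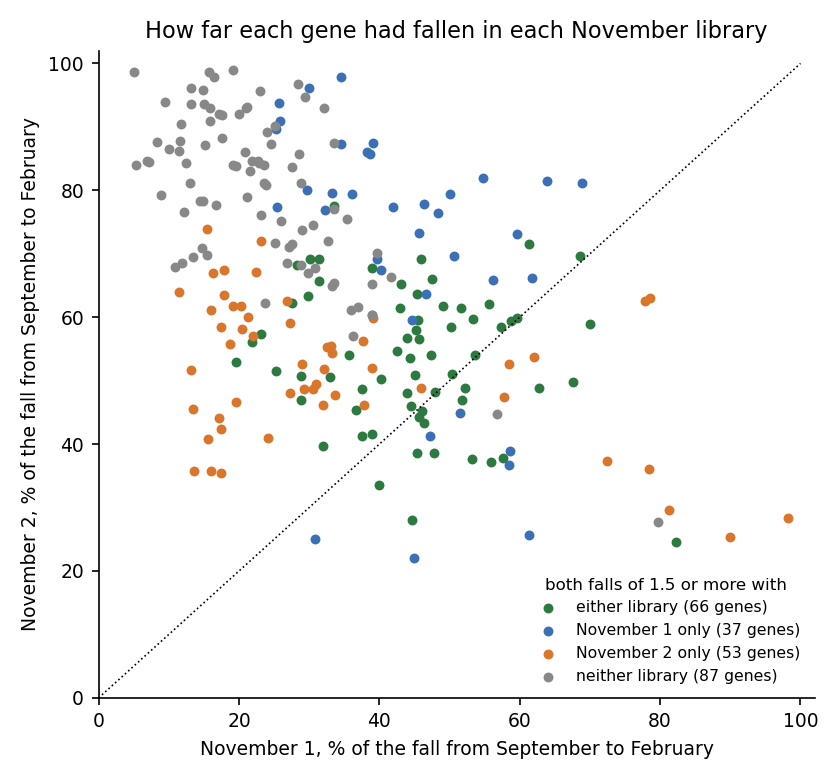
Percentage of the fall from September to February, on the log2(FPKM + 1) scale, that each of the 243 genes had completed in November 1 (x axis) and November 2 (y axis). Colours show with which November library both falls reach 1.5, and the 87 grey genes that do so with neither lie mostly at the upper left. There November 1 is within 1.5 of September and November 2 within 1.5 of February on that scale.

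Members higher in November 2 were fewer and more abundant. The 35 such genes had a median September level of 89.6 FPKM, against 44.3 FPKM for the 208 others, and 6 of the 10 most abundant members were among them. By September level, November 1 was the higher in 57 of the 61 lowest members (9.08 to 25.7 FPKM), 57 of the next 61, 47 of the next 60, and 47 of the 61 highest (114 to 19033 FPKM). The median difference of the November libraries in these 4 level classes was 1.75, 2.02, 1.24 and 0.94. In the same order the median second fall was 1.84, 2.16, 2.4 and 3.03, and the median first fall 2, 2.24, 2.42 and 2.47. A gene with few FPKM cannot fall far in log2(FPKM + 1), and the part of this in the order of the falls was not tested.

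In February many members were too low to be measured well. Both February libraries listed 14 members at 0 and exactly 1 of them listed a further 21 at 0. Over both libraries together 47 members had 3 reads or fewer, and 104 had more than 30. The most abundant of the 14 lay on scaffold 11015 (244538 to 245251, plus strand), at 128 and 112 FPKM in September and 25.9 and 4.17 in November. Also at 0 was a gene on scaffold 332 (1343509 to 1343853, plus strand), with 54.7 and 83.2 FPKM in September and then 0.53 and 22.4 in November, the former from 3 reads. At the other end, a gene on scaffold 13940 (266009 to 267037, plus strand) kept 10.4% of its level. Its values were 147 and 115 FPKM in September, 40.9 and 47.4 in November and 10.4 and 16.8 in February.

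The gene models of the members were compact. The listed length, which is mostly coding length since 90.5% of the lengths were multiples of 3, had a median of 1068 bases, close to the 1131 bases of all genes with 5 FPKM or more in September. The span from start to end had a median of 1797 bases, against 3692 bases over those genes. Other falling genes were near the members, with medians of 1988 bases in early fallers and 2076 in late fallers. The median was 1649 bases in the 399 other genes with a total fall of 3 or more. Only 15 members (6.17%) spanned 10000 bases or more, against 39% of those genes. Among genes with 100 FPKM or more in September the shares were 4.55% of 66 members and 32% of all 1759. Early fallers (18.9%) and late fallers (21.6%) lay between, and the 399 other genes with a total fall of 3 or more were at 8.27%, near the members. The span was equal to the listed length, as in a model without introns, in 19.8% of members and 15.1% of all genes with that September level. That share was 17.9% in early fallers, 25.4% in late fallers and 20.8% in the 399 other genes. The longest span was that of a gene on scaffold 4461 (172303 to 421295, minus strand), at 76.7 and 85.8 FPKM in September, 20.5 and 19.6 in November and 2.14 and 4.25 in February.

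**Figure D5:**
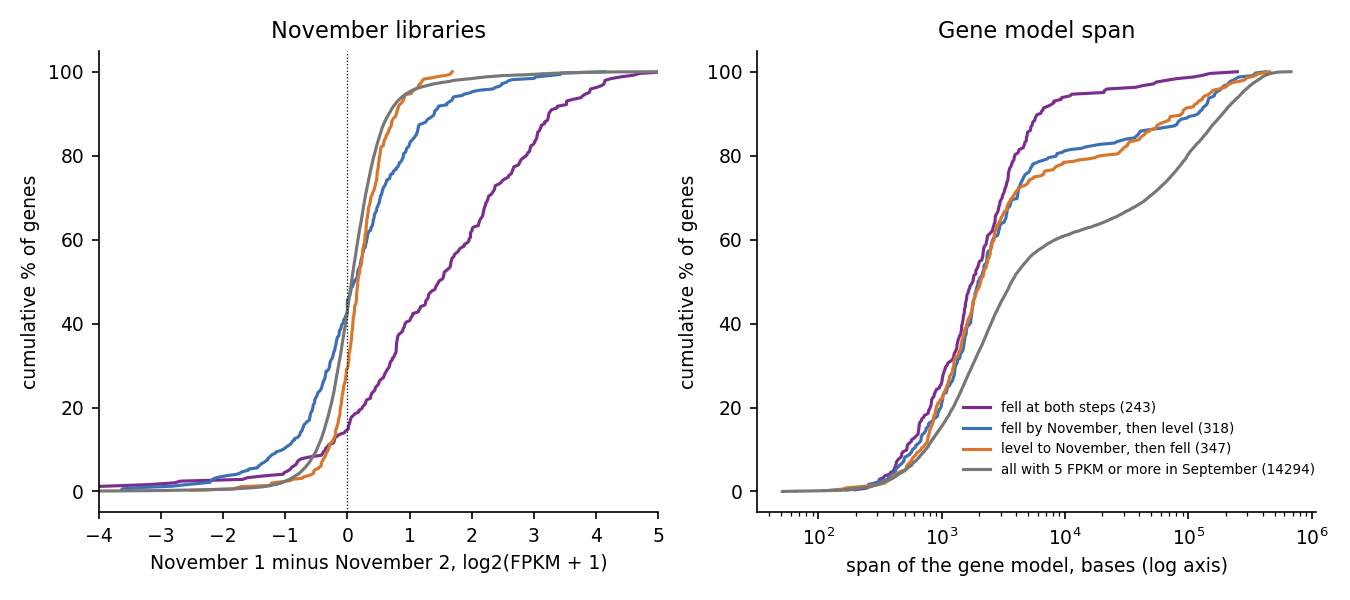
Cumulative percentage of genes by the difference between the November libraries (left, log2(FPKM + 1)) and by the span of the gene model (right, bases on a log axis), for the members, early fallers, late fallers and all genes with 5 FPKM or more in September. In the left panel the curve of the members lies to the right of the others for differences above 0, with a median of 1.48, and in the right panel it rises earliest, with 6.17% of members at 10000 bases or more.

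The members were spread over 218 scaffolds, and 195 of them were alone on theirs. Scaffold 3536 held 4 members, the most of any, and 22 scaffolds held 2. Beside the abundant gene described above, scaffold 3536 held members on the plus strand (1948381 to 1948981) and on the minus strand (2509301 to 2510289 and 2751675 to 2752964). In November these stood at 25.6 and 24.7 FPKM, 11.2 and 8.95 FPKM, and 28.2 and 27.4 FPKM. All 3 thus had nearly equal November libraries, unlike the abundant gene on that scaffold.

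Next to each other, with no other gene model between, lay 13 pairs of members. The 26 genes in them were 10.7% of the members, against 3.14% of early fallers and 5.48% of late fallers that had a neighbour of their own set. In 7 pairs both genes were on the same strand, and 5 pairs were less than 20000 bases apart. Both genes of a pair were higher in November 1 in 11 pairs and both were higher in November 2 in the other 2, with no pair split. Over all members, November 1 was already the higher in 85.6%. These shares were not tested.

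On the minus strand of scaffold 5172, members at 66633 to 67250 and 129838 to 184600 had listed lengths of 618 and 617 bases. The first stood at 316 and 230 FPKM in September, 91.7 and 13.7 in November and 0.101 and 0.0977 in February. For the second the values were 297 and 230, 126 and 14.2, and 0 and 0.0979 FPKM. The pair was alike in every library, with second falls of 5.07 and 5.39, and whether the genes are copies that share reads was not tested. On the plus strand of scaffold 1971, members at 1464138 to 1465694 and 1477931 to 1479324 were both listed at 0 in February. The first had 8.32 and 9.84 FPKM in September and 7.95 and 0.0327 in November, and the second had 17 and 17.6 and then 9.22 and 0.261. Both were closer to September than to February in November 1 and were almost gone in November 2.

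The pairs in which November 2 was higher were on scaffold 2408 (180853 to 181536 on the plus strand and 196677 to 197364 on the minus strand) and on scaffold 6920 (738069 to 739605 and 822938 to 824734, minus strand). On scaffold 2408 the first gene held 71.4 and 219 FPKM in November and the second 5.54 and 20. On scaffold 7221 the members at 171802 to 172446 and 193369 to 194577, both on the plus strand, fell second by 4.41 and 4.66. The other pairs lay on scaffolds 12701 (28058 to 29508 and 66766 to 68115), 12826 (465770 to 467146 and 865668 to 867823), 14513 (137427 to 140918 and 332546 to 334696), 3367 (1170872 to 1173824 and 1174142 to 1174793), 4435 (154121 to 157215 and 215980 to 216779) and 9341 (177133 to 178463 and 278520 to 280289).

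In the last pairs, on scaffolds 2134 (1870948 to 1871604 and 1871303 to 1877921) and 355 (397672 to 397980 and 397846 to 403538), the models overlap by 302 and 135 bases on opposite strands. Use of strand in the counting is not given in the sources used here, so reads from the overlapping stretch cannot be assigned to either gene. Without these pairs 22 members (9.05%) had a neighbouring member. In all, 19 members (7.82%) overlapped a model on the opposite strand, against 18.2% of all genes with 5 FPKM or more in September. The members also had shorter spans, with a median of 1797 against 3692 bases. The part of span in the share that overlapped was not tested.

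Flanking genes that were not members had smaller median changes than the members, whose falls the rule had chosen for size. Of the 367 models directly beside a member, 149 were annotated genes with 5 FPKM or more in September. Their median change was −0.22 at the first step and −0.39 at the second on the log2(FPKM + 1) scale, beside −0.15 and −0.14 for all genes with that level. A total fall of 3 or more was seen in 15 of the 149 (10.1%), beside 4.49% of all such genes. A total fall of 1 or more was seen in 38.3%, beside 28.7%. The values for all such genes include the 243 members, which the flanking genes leave out. Without the members, 399 of 14051 such genes had a total fall of 3 or more. These differences were not tested.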

How the data were processed

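FPKM for 43690 gene models in 6 mRNA libraries were used as deposited by the authors, per the file headers. Tools listed in the submitters' processing notes, with no role stated, are TopHat2 2.0.12, HTSeq 0.6.1, Bowtie and CASAVA 1.8. The genome build and annotation were not given in the sources used here. The small-RNA table, as deposited by the authors, lists unnormalized counts under miRNA names in 9 libraries. It was read for totals only (90008 to 1269029 per library).

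FPKM times listed length fell on whole multiples of 1 step per library, within 0.05 of a read, for 98.74% to 98.81% of values. These recovered reads served as depth and in edgeR 4.0.16 and DESeq2 1.42.0. Models that were not whole were added models, and none was a member.

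In R 4.3.3, limma 3.58.1 (trend option, 1 coefficient per month) modelled log2(FPKM + 1) of the 22947 genes reaching 1 FPKM in 2 or more libraries (3 residual degrees of freedom), with Benjamini-Hochberg adjustment over all of them. The scripts were tested on simulated data. Members and lists were chosen with earlier results of these data known. Named are the 10 most abundant members, 5 each by first, second and total fall and by evenness (50 FPKM or more in September), 3 on either side of a limit, and neighbours. Other named members were chosen after their values were seen. Alternatives covered pseudocount, scaling, filters, limits, tool and left-out libraries.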

Additional observations from a re-analysis of the deposited data

How the results depend on the processing

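Of 92 alternatives over 11 results, 81 stayed within 1.5 times a count or within the spread of the libraries. For the monthly shares, leaving out a library cannot pass that spread. For the median falls the spread was 1.25, mostly from the November libraries. First falls of 1.41 and 2.92, in place of 2.25, therefore counted as within it. None turned a direction, but the rule itself fixes the direction of the falls. The number of genes falling at both steps, 243, was 396 with a pseudocount of 0.1, 602 with falls of 1 or more, 105 with falls of 2 or more and 143 with the libraries numbered 1 alone. It ranged from 132 (without November 2) to 262 with a library left out. Without November 1 it was 165, of which 119 were among the 243, and without November 2 103 of the 132 were. The libraries numbered 2 alone gave 167, and the 63 genes shared with those from number 1 were 44.1% of the one choice and 37.7% of the other. Members called lower by limma numbered 74 to 242 at the first step, 99 to 241 at the second and 233 to 243 from September to February with a library left out, where the lone library of a month is assumed to vary like the others. As reads, the members' mean share was 3.93% in September and 0.0666% in February, in place of 4.95% and 0.0834% of FPKM. TMM factors moved the median change of all tested genes from September to February by 0.115. The causes were not tested.

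No label says whether libraries of the same number belong together. Deviations of the same number correlated at −0.086 (September and November), −0.18 (September and February) and 0.098 (November and February) across genes. With 2 libraries per month these values cannot decide whether the libraries were paired. With the falls required within each number, as in a replicate block, 63 genes were left. With the replicate block in limma 190, 188 and 243 members were called lower in the 3 comparisons. With the numbers crossed between September and February 243 were. Crossed numbers, TMM factors for the November difference, and other limits for that difference and the span were chosen after seeing the data.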

Other observations

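Among the 1850 models added by the authors, which the rule leaves out, 12 met the same conditions. The most abundant lay on the minus strand of scaffold 3472 (1113484 to 1114326), at 323 and 283 FPKM in September, 91.8 and 100 in November and 12.2 and 19.2 in February. A pair on the plus strand of scaffold 230 (2226543 to 2227516 and 1991214 to 1992135) was listed at 0 in both February libraries. The first held 18.5 and 18.9 FPKM in September and 12.2 and 0.172 in November, and the second 9.68 and 14.6 and then 6.56 and 0.0929. In both, November 1 was the library nearer to September and November 2 the one nearer to February.

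The mirror image of the rule, rises of 1.5 or more at both steps with 5 FPKM or more in February, was met by 119 annotated genes. November 2 was the higher in 84 of them (70.6%), and the November libraries were more than 1 apart in 37%, against 64.2% of the genes that fell at both steps. In falling and rising genes alike, November 2 was thus more often the library nearer to February. Over all genes with 5 FPKM or more in September, November 1 was the higher in 56.9%, and 7.22% had November libraries more than 1 apart. Neither share was computed over genes with 5 FPKM or more in February. The difference between falling and rising genes was not tested.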
